A study of Mus musculus with 7 samples.

Results

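A set of 7 genes that act in progenitor spermatogonia was measured in *Meioc*-null and wild-type pup testes: the transcription factors *Zbtb16*, *Sall4*, *Sox3* and *Neurog3*, the RNA-binding proteins *Lin28a* and *Nanos3*, and the enzyme gene *Upp1*. They were chosen by name, with earlier results of these data known, and are 7 of the 21928 genes in the tables. All 7 were above 1 TPM (a level per transcript length, scaled to a total of 1000000) in every library, the lowest value being 2.09 TPM for *Neurog3*. All 7 are therefore among the 13630 genes tested, and none of them was tested only because of its level in a single genotype.

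Spermatogonia are the mitotic germ cells of the testis. Stem cells among them divide into chains of progenitors, which still count as undifferentiated spermatogonia. Retinoic acid then drives progenitors to become KIT-positive differentiating spermatogonia. After further divisions these become preleptotene spermatocytes, the cells that enter meiosis. MEIOC is a germ cell protein, required in the male for an orderly entry into meiotic prophase.

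Bulk RNA-seq was made from 4 wild-type and 3 *Meioc*-null C57BL/6N pups, with 1 library per pup from 1.5 testes. The null pups carried the *Meioc* tm1.1Dpc allele, which had been backcrossed to C57BL/6N. Pups of both genotypes received WIN 18,446, which inhibits the synthesis of retinoic acid, in daily doses of 0.1 mg per gram from postnatal day 2 to day 8, and then retinoic acid at 0.0125 mg per gram on day 9. Testes were taken 6.75 days after the retinoic acid, when preleptotene spermatocytes are enriched. These were whole testes, so somatic cells contributed RNA as well, and the spermatogonia of interest here were not the enriched stage. In such bulk tissue, more cells of a type and more RNA per cell cannot be told apart.

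The libraries held between 12537852 and 20552702 estimated counts, and no pair of libraries agreed within sampling noise. The targeted gene *Meioc* stood between 468 and 720 CPM (estimated counts per 1000000, scaled by TMM) in wild type, against 299.6 to 413 CPM in the *Meioc*-null libraries, and the groups did not overlap. Germ cell markers summed to between 2102 and 2281 CPM in wild type, against 1623 to 1688 CPM in the null libraries. Of 13630 genes tested with edgeR, 11.1% were called at an adjusted p under 0.05, 7.77% as higher in wild type and 3.33% as higher in the *Meioc*-null libraries.

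Of the 7 progenitor regulators, 4 were called higher in *Meioc*-null testes: *Zbtb16*, *Lin28a*, *Nanos3* and *Upp1*, at 1.59 to 1.81 times the wild-type level. All 7 had a negative log2 fold change (wild type/*Meioc* knockout), and none was called higher in wild type by edgeR or DESeq2. The 4 called of 7 stand beside 3.33% of all genes tested that were called in that direction, and the median log2 fold change of the 7 was -0.71, beside -0.0065 over all genes tested. Because the 7 were chosen with earlier results of these data known, these shares and medians are a description and not a test. The same 4 genes had groups that did not overlap between the genotypes, a pattern seen with higher *Meioc*-null levels in 10.8% of all genes tested. *Meioc*-null replicate 2 held the highest value of all 7 libraries for every one of the 7 genes. That library was also the highest in 24.5% of all genes tested, and in 44.9% of the genes with a negative log2 fold change.

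**Figure D1:**
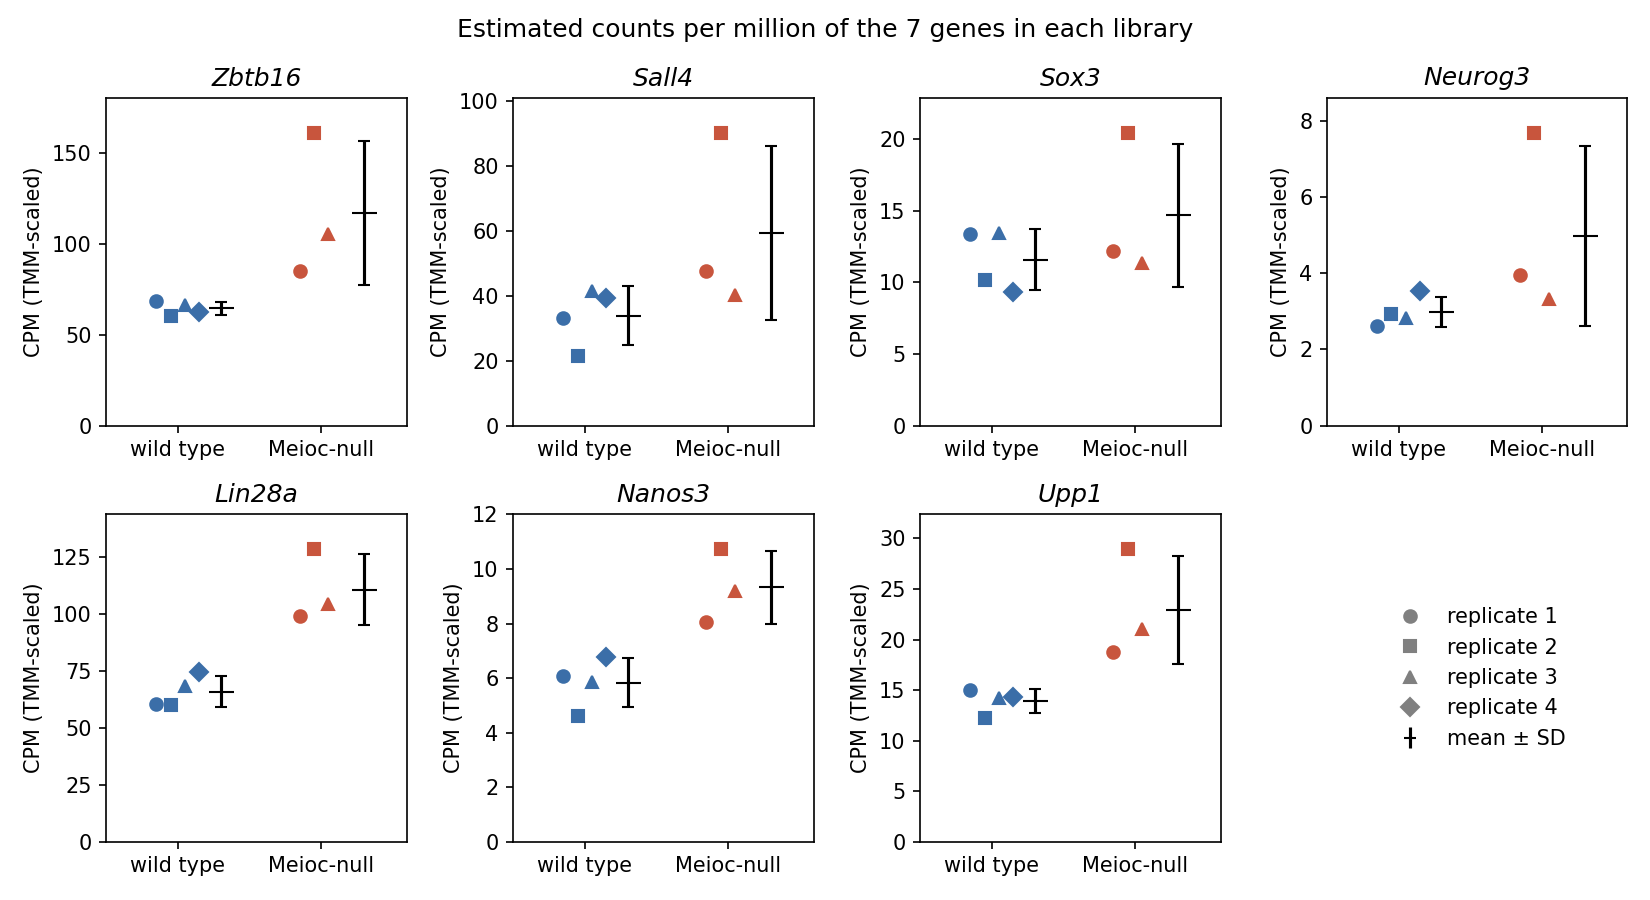
Each panel plots the TMM-scaled CPM of 1 gene in 4 wild-type (blue) and 3 *Meioc*-null (red) libraries, with the marker shape giving the replicate number and the black bar the mean ± SD. The groups are apart for *Zbtb16*, *Lin28a*, *Nanos3* and *Upp1* and overlap for *Sall4*, *Sox3* and *Neurog3*, and replicate 2 is the highest *Meioc*-null library in all 7 panels.

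*Zbtb16* encodes PLZF, a zinc finger repressor needed to maintain undifferentiated spermatogonia. The gene lies on the reverse strand at chr9:48654297-48836222 (GRCm38). Its level was 68.7, 60.5, 66.4 and 62.8 CPM in wild-type replicates 1 to 4, and 84.9, 161 and 105 CPM in *Meioc*-null replicates 1 to 3. The wild-type pups lay within a narrow band, all below the lowest *Meioc*-null pup, while the *Meioc*-null pups differed widely among themselves. *Zbtb16* was 1.81 times as high in *Meioc*-null testes (95% interval 1.42 to 2.31; log2 fold change -0.86, SE 0.18; edgeR, Benjamini-Hochberg adjusted p = 0.021). Without *Meioc*-null replicate 2 the log2 fold change was -0.56 and the gene was still called. It was not called without wild-type replicate 2, 3 or 4 or without *Meioc*-null replicate 3, where the edgeR adjusted p lay between 0.054 and 0.066.

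*Sall4* encodes a zinc finger factor that works with PLZF in undifferentiated spermatogonia, and lies on the reverse strand at chr2:168748332-168767943. It stood at 33.2, 21.5, 41.6 and 39.4 CPM in the wild-type libraries and at 47.7, 90.2 and 40.3 CPM in the *Meioc*-null libraries. *Meioc*-null replicate 3 fell among the wild-type values, so the groups overlapped. The estimate, 1.74 times the wild-type level (95% interval 1.18 to 2.57; log2 fold change -0.80, SE 0.29), did not pass the test (edgeR adjusted p = 0.097). Without *Meioc*-null replicate 2 the log2 fold change was -0.37, closer to 0 than with all 7 libraries.

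*Sox3* encodes a SoxB1 transcription factor of committed progenitors, in a single exon on the reverse strand at chrX:60891366-60893430. Its values were 13.4, 10.2, 13.4 and 9.34 CPM in the wild-type libraries and 12.2, 20.4 and 11.4 CPM in the *Meioc*-null libraries. Of the 3 *Meioc*-null libraries only replicate 2 left the wild-type range. *Sox3* had the smallest difference of the 7 genes, with a log2 fold change of -0.34 (SE 0.22; edgeR adjusted p = 0.34) and an interval of 0.93 to 1.71 times the wild-type level. Without *Meioc*-null replicate 2 the estimate was -0.032.

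*Neurog3* encodes a basic helix-loop-helix factor that marks progenitors prepared to differentiate, and lies on the forward strand at chr10:62133090-62134763. It was the least abundant of the 7, with 33 to 70 estimated counts per wild-type library and 61 to 106 per *Meioc*-null library. The values were 2.61, 2.94, 2.84 and 3.53 CPM in the wild-type libraries and 3.95, 7.68 and 3.32 CPM in the *Meioc*-null libraries. *Meioc*-null replicate 3 lay below wild-type replicate 4. The log2 fold change of -0.71 (SE 0.29) did not pass the test (edgeR adjusted p = 0.13), and it was -0.28 without *Meioc*-null replicate 2.

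*Lin28a* encodes an RNA-binding protein that blocks maturation of let-7 microRNAs, and lies on the reverse strand at chr4:134003330-134018841. Its level was 60.4, 60.1, 68.2 and 74.3 CPM in the wild-type libraries and 99.2, 128 and 104 CPM in the *Meioc*-null libraries. Every *Meioc*-null library was above every wild-type library. *Lin28a* was 1.68 times as high in *Meioc*-null testes (95% interval 1.44 to 1.96; log2 fold change -0.75, SE 0.11; edgeR adjusted p = 0.0098). It was called in each of the 17 alternative fits, with adjusted p of at most 0.041. Without *Meioc*-null replicate 2 the log2 fold change was -0.63.

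*Nanos3* encodes a zinc finger RNA-binding protein of progenitors that recruits deadenylases, and lies on the reverse strand at chr8:84173731-84185217. It was a low-count gene, at 6.09, 4.61, 5.88 and 6.76 CPM in the wild-type libraries and 8.06, 10.7 and 9.19 CPM in the *Meioc*-null libraries. The groups did not overlap. Its level was 1.59 times as high in *Meioc*-null testes (95% interval 1.26 to 2.01; log2 fold change -0.67, SE 0.17; edgeR adjusted p = 0.037). The call was lost without *Meioc*-null replicate 2 (log2 fold change -0.56; edgeR adjusted p = 0.11), and without *Meioc*-null replicate 3 or wild-type replicate 2, 3 or 4 (adjusted p between 0.055 and 0.099).

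*Upp1* encodes uridine phosphorylase 1, which splits uridine into uracil and ribose 1-phosphate, and lies on the forward strand at chr11:9118103-9136170. It stood at 15.02, 12.2, 14.2 and 14.3 CPM in the wild-type libraries and at 18.7, 28.9 and 21.1 CPM in the *Meioc*-null libraries. Again all *Meioc*-null pups were above all wild-type pups. The gene was 1.64 times as high in *Meioc*-null testes (95% interval 1.33 to 2.02; log2 fold change -0.71, SE 0.16; edgeR adjusted p = 0.023). The call was lost without *Meioc*-null replicate 2 (log2 fold change -0.51; edgeR adjusted p = 0.059), and without *Meioc*-null replicate 3 or wild-type replicate 2, 3 or 4 (adjusted p between 0.054 and 0.070).

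**Figure D2:**
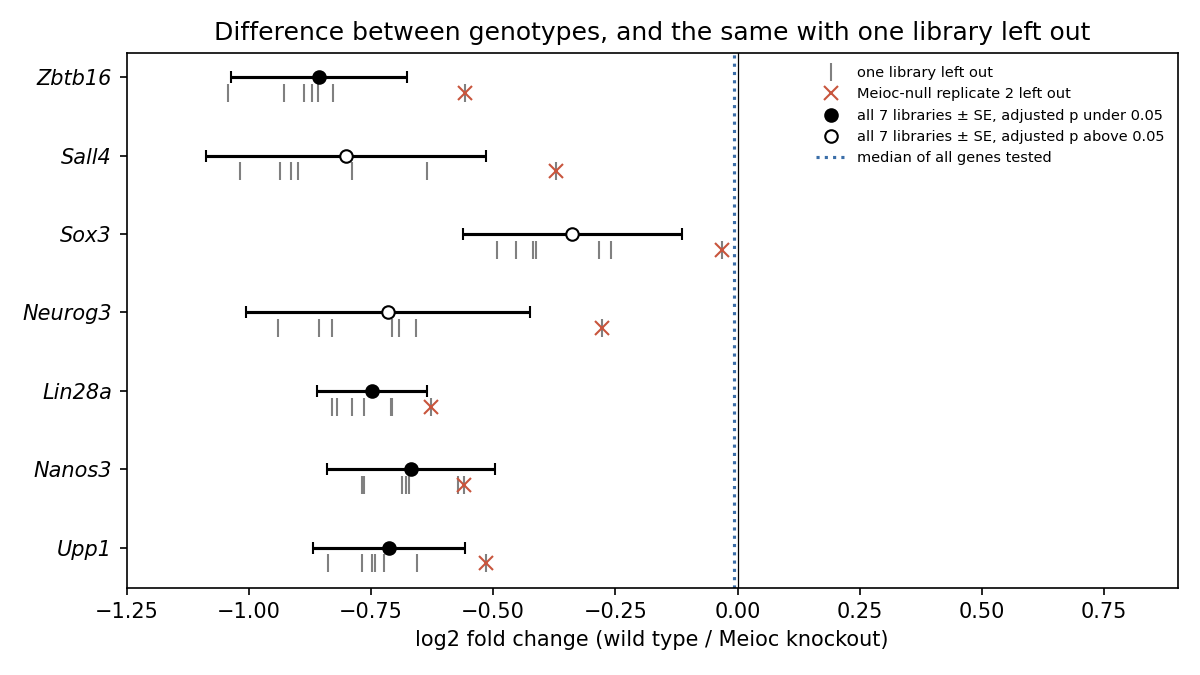
The horizontal axis is the log2 fold change (wild type/*Meioc* knockout) of each gene, with black circles and bars for the edgeR estimate ± SE over all 7 libraries (filled where the adjusted p is under 0.05), grey ticks for the fits without 1 library and a red cross for the fit without *Meioc*-null replicate 2. That cross lies nearest to 0 for each gene, at -0.032 for *Sox3* and at -0.63 for *Lin28a*, and no estimate crosses 0.

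The *Meioc*-null libraries also differed in how the levels of genes varied with annotated transcript length. Over the genes tested, the deviation of *Meioc*-null replicate 2 from its group mean rose with transcript length (Spearman rho 0.44 across genes, which are not independent). That of *Meioc*-null replicate 1 fell with it (rho -0.39). Deviations within a group balance, so a rise in any library goes with a fall in another. With GC content the largest trends were in *Meioc*-null replicate 3 (rho -0.30) and wild-type replicate 3 (rho 0.24). Among the 7 genes the mean transcript length runs from 720 bases for *Nanos3* to 4496 bases for *Sall4*, beside a median of 2743 bases. In an edgeR fit with the trends over length and GC content removed, chosen after the data were seen, the same number of the 7 genes was called, 4, and the log2 fold changes ran from -0.27 for *Sox3* to -0.85 for *Nanos3*.

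The transcripts of *Upp1* differed from each other in how they varied between the genotypes, a pattern chosen for description after its values were seen. The tables hold 3 *Upp1* transcripts, with the same start codon at chr11:9125652-9125654 and the same stop codon, but with different first exons. That of Upp1-201 covers chr11:9118103-9118284, and that of Upp1-205 begins 404 bases further on and covers chr11:9118507-9118660. Both first exons lie upstream of the start codon, in the 5′ untranslated region. The bases upstream of the 2 groups of starts are shown, because the 2 transcripts are annotated with different starts. RefSeq gives 3 start sites for *Upp1* on GRCm38.p6, and each line gives 200 bases, 5′ to 3′ on the forward strand, with CG pairs in capitals. The first ends before the most upstream of these starts, itself upstream of the start of Upp1-201, and the second ends directly before the start of Upp1-205. They lie at chr11:9117808-9118007 and chr11:9118307-9118506.
Upp1, before the first RefSeq start: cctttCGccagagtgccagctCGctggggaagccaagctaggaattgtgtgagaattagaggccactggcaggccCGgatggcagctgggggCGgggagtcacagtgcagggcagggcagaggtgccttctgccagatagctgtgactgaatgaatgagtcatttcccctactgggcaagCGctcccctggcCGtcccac
Upp1, before the Upp1-205 start: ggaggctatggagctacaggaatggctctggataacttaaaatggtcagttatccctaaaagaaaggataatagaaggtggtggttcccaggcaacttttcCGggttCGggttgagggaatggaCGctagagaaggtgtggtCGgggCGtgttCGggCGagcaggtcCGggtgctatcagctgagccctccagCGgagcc
The first stretch holds 6 CG pairs and the second 9, beside a median of 5 in the same 200 bases before all RefSeq starts. Of those, 53.9% hold fewer CG pairs than the first stretch and 63.2% fewer than the second. Neither stretch overlaps an exon of the *Upp1* transcripts in the tables.

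Upp1-201 stood at 15.04, 12.2, 14.1 and 14.0 CPM in the wild-type libraries and at 15.1, 14.4 and 9.07 CPM in the *Meioc*-null libraries, and the groups overlapped (log2 fold change 0.11, SE 0.20; edgeR across transcripts, adjusted p = 0.85). Upp1-205 was estimated at 3.97, 14.3 and 12.3 CPM in the *Meioc*-null libraries, and at 0, 0, 0 and 0.203 CPM in wild type. In estimated counts these were 72.7, 196 and 223 of the *Upp1* counts of the 3 *Meioc*-null pups, or 20.7%, 49.2% and 57.7%, and at most 4.33 counts, or 1.53%, in any wild-type pup. All 3 *Meioc*-null pups were above all 4 wild-type pups, and the highest share was not in replicate 2 but in replicate 3. The difference did not pass the test across all 21920 transcripts (edgeR unadjusted p = 0.00061, adjusted p = 0.088), in which 0.00912% of transcripts were called higher in the *Meioc*-null libraries. DESeq2, which called 2596 of these transcripts where edgeR called 14, gave Upp1-205 an adjusted p of 3.1e-10. The third transcript, Upp1-202, held at most 5.53 counts in a library. The estimator splits reads between transcripts that share exons 2 to 8 and most of exon 9, whose annotated end differs by a few bases. Of the 1222 stretches of 31 bases in Upp1-205, 153 occur in no other transcript of the tables. All 153 touch its first exon, and 124 of them lie wholly within it.

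**Figure D3:**
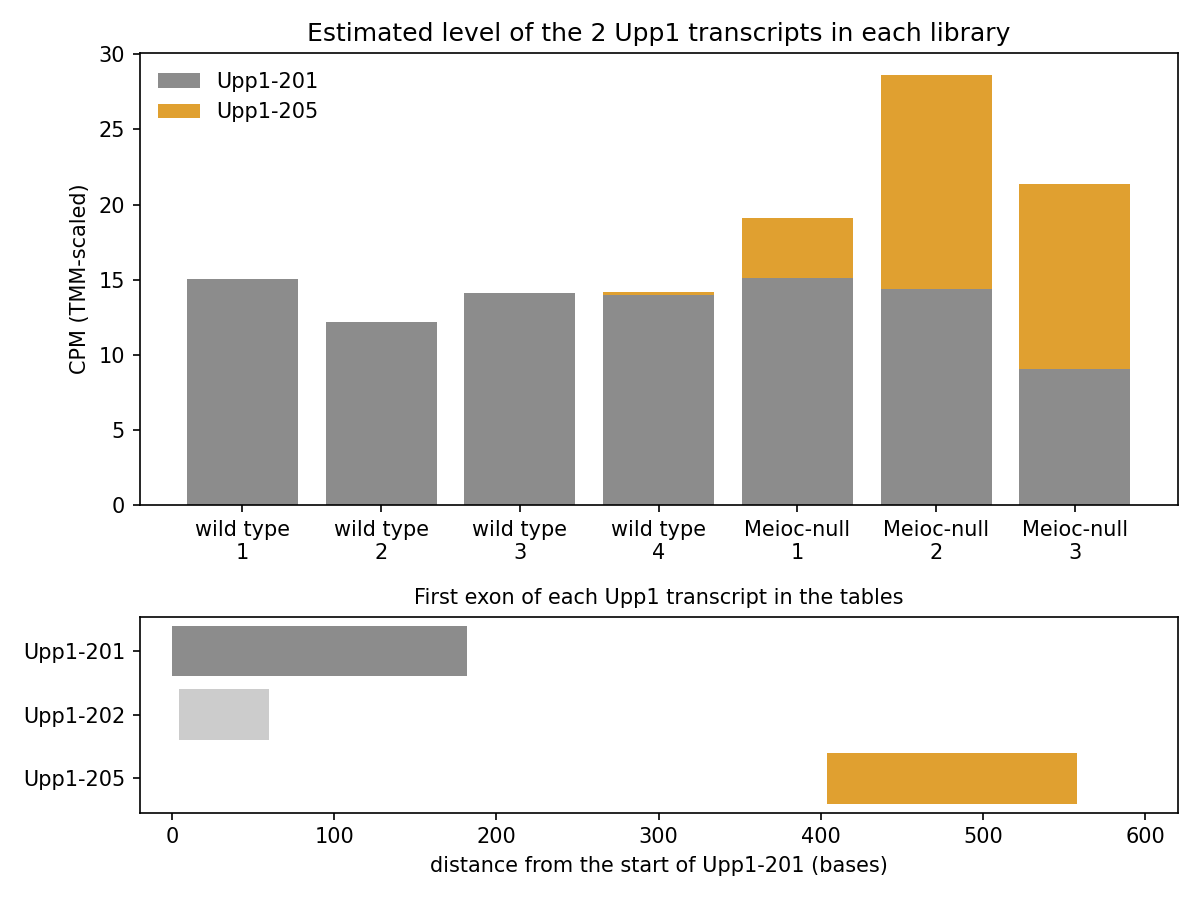
The upper panel stacks the TMM-scaled CPM of Upp1-201 (grey) and Upp1-205 (orange) in each of the 7 libraries, and the lower panel draws the first exon of each *Upp1* transcript by its distance in bases from the start of Upp1-201. Upp1-205 is visible in the 3 *Meioc*-null libraries, at 3.97 to 14.3 CPM, and its first exon starts 404 bases after that of Upp1-201.

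Of the 12 transcripts of the 7 genes that were tested, none was called by edgeR and 7 had an unadjusted p under 0.05 (beside 17.4% of all transcripts tested). DESeq2 called 4, Lin28a-201, Zbtb16-201, Zbtb16-202 and Upp1-205, beside 2596 of all 21920 transcripts tested. *Zbtb16* has 2 transcripts in the tables. Zbtb16-201 went from a mean of 55.2 ± 3.49 CPM (SD, n = 4) in wild type to 95.6 ± 29.8 CPM (SD, n = 3) in the *Meioc*-null libraries (log2 fold change -0.79, edgeR adjusted p = 0.13). The corresponding means of Zbtb16-202 were 9.41 ± 2.52 and 23.0 ± 9.29 CPM (log2 fold change -1.29, edgeR adjusted p = 0.14). *Sall4* has 3 transcripts, of which Sall4-201 held most of the level in every library and Sall4-203 had a log2 fold change of 0.88 with an SE of 1.67. *Nanos3* has 2, with log2 fold changes of -0.71 and -0.63. *Lin28a*, *Neurog3* and *Sox3* have 1 transcript each.

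RefSeq windows of 300 bases, from 250 before a start to 50 after it, were matched for 4 of the 7 genes (*Lin28a*, *Nanos3*, *Neurog3* and *Upp1*; 6 windows). They were searched on both strands for 3 motifs of regulators of meiotic entry. The E2F site TTCCCGC occurs in 4.6% of the 32851 windows of all genes, the E-box CACGTG in 7.15% and the STRA8-MEIOSIN motif CNCCTCAG in 7.94%. The only match among the members was the STRA8-MEIOSIN motif near the start of Upp1-201, on the reverse strand at chr11:9118042-9118049. It is shown in capitals within chr11:9118031-9118060, read on the forward strand, where it appears as its reverse complement.
Upp1, motif near the Upp1-201 start: caggaaggaccCTGAGGGGaagacaataaa
The window around the Upp1-205 start held none of the 3 motifs.

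TPM allows the levels of different genes to be compared, by an effective length that the estimator corrected for sequence bias. That length was 7466 to 7876 bases for Zbtb16-201, annotated at 5114 bases. For Nanos3-201, annotated at 730 bases, it was 603 to 633 bases. *Lin28a* was the most abundant of the 7 genes, at 22.5 ± 1.99 TPM (SD, n = 4) in wild type and 45.0 ± 10.4 TPM (SD, n = 3) in *Meioc*-null testes, and ranked first in all 7 libraries. *Zbtb16*, *Upp1* and *Nanos3* followed, at 15.4 ± 1.90, 16.1 ± 2.12 and 14.6 ± 2.65 TPM in wild type. Their order was not fixed: *Zbtb16* was above *Upp1* in 3 of 7 libraries, and *Upp1* above *Nanos3* in 6. *Sall4*, *Sox3* and *Neurog3* held the fifth, sixth and seventh place in every library, with wild-type means of 8.34 ± 1.96, 5.25 ± 1.34 and 2.23 ± 0.235 TPM. The ratio of the *Meioc*-null to the wild-type mean was larger in TPM than in CPM for each gene, for example 2.00 against 1.68 for *Lin28a*. The median log2 fold change of all genes tested was -0.23 on the log2(TPM + 1) scale, and 82.6% of the calls there were higher in the *Meioc*-null libraries, beside 30.01% on the count scale. In that fit 5 of the 7 genes were called, *Sall4* being added. They stand beside 2082 of the 13630 genes tested that were called higher in the *Meioc*-null libraries there.

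**Figure D4:**
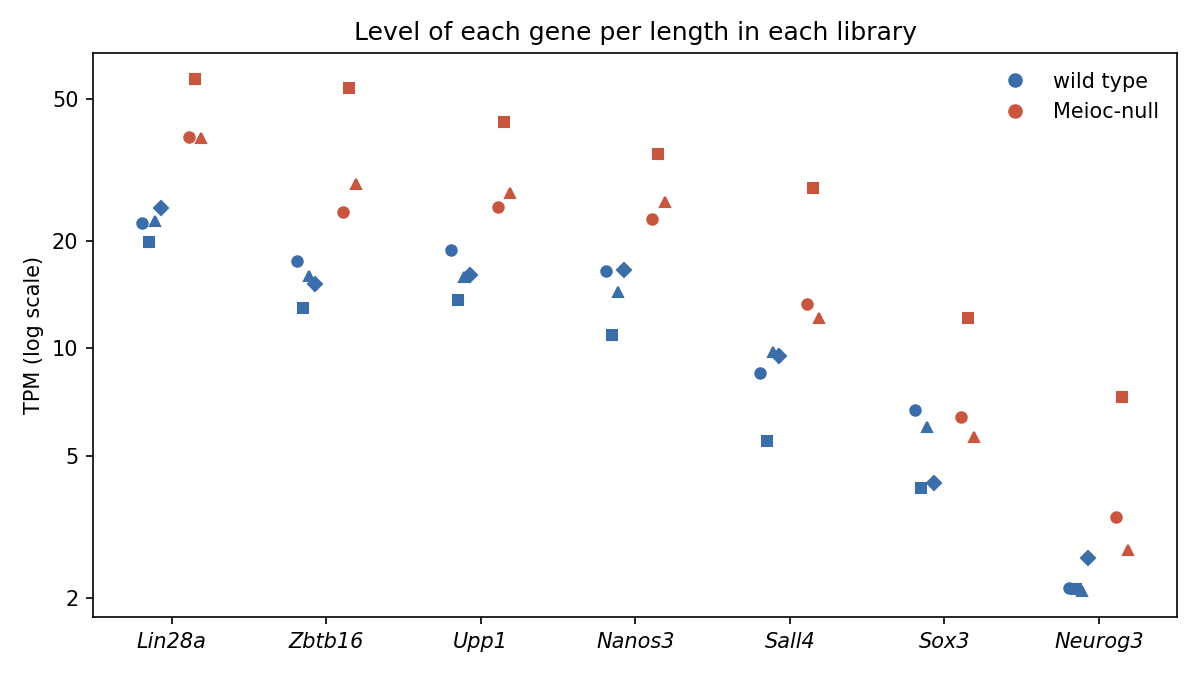
TPM on a log axis for each gene in each library, wild type in blue and *Meioc*-null in red, with marker shapes for the replicate number (circle 1, square 2, triangle 3, diamond 4). The genes are ordered by mean TPM, with *Lin28a* highest and *Neurog3* lowest in each library.

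The 7 genes were compared with each other, and with all other genes, over the 7 libraries. Likeness was measured as the mean absolute difference of centred log2 CPM over the 7 libraries, where 0 is an identical pattern. The closest pairs were *Lin28a* with *Nanos3*, *Zbtb16* with *Upp1*, and *Nanos3* with *Upp1*, each at 0.091 to 0.092, and the farthest was *Sall4* with *Sox3*, at 0.32. Among the genes with at least 10 CPM, those nearest to each member were *Prtg* (0.030) and *Stox2* (0.061) to *Zbtb16*, *Cep170b* (0.043) and *Irf2bpl* (0.070) to *Sox3*, and *Large2* (0.043) and *Scube3* (0.054) to *Upp1*. *Cbln3* (0.060) and *Piwil4* (0.079), a piRNA-pathway gene, were nearest to *Lin28a*, and *Nek6* (0.081) and *Dctd* (0.085), a deoxycytidylate deaminase, to *Nanos3*. *Flrt1* (0.089) and *Gm42715* (0.14) were nearest to *Neurog3*, and *Shroom3* (0.13) and *Myo7a* (0.18) to *Sall4*. The median distance from a member to all such genes was between 0.29 and 0.43.

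Genes of neighbouring stages were read in the same fit. Over all genes tested, 30.3% had an unadjusted p under 0.05 in edgeR and 17.1% were called by DESeq2, the shares to set beside the counts of each list. Of 16 spermatogonial stem cell genes 10 were tested and none was called by edgeR (5 had an unadjusted p under 0.05 and DESeq2 called 3). The list median was -0.41, and 9 of 10 values were negative. Named here after their values were seen, *Egr4* stood at -1.09 (edgeR adjusted p = 0.051), *Gfra1*, the receptor for GDNF, at -0.14 (adjusted p = 0.63) and *Id4* at 0.15 (adjusted p = 0.34). Of 12 other undifferentiated spermatogonia genes, *Itga6* was called higher in *Meioc*-null testes (log2 fold change -0.47, edgeR adjusted p = 0.017) and *Taf4b*, a germ cell TFIID subunit, higher in wild type (0.58, adjusted p = 0.018), and the list median was -0.35. Among these 12 genes 10 values were negative, 8 had an unadjusted p under 0.05 in either direction and DESeq2 called 6. The list summed to between 837.6 and 890.3 CPM in wild type and to between 829.4 and 885.4 CPM in *Meioc*-null testes, so the sums overlapped. Of 10 differentiating spermatogonia genes, *Kit* (0.55) and *Rhox13* (0.85) were called higher in wild type by edgeR and none higher in *Meioc*-null testes, with a median of 0.19. In this list 3 of 10 values were negative, 6 genes had an unadjusted p under 0.05 and DESeq2 called 3. The median was therefore negative for the members and for both lists of undifferentiated spermatogonia and positive for the differentiating list.

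Cell markers moved with genotype as well. Of 8 germ cell markers, 4 were called higher in wild type, among them *Dazl* (log2 fold change 0.58, edgeR adjusted p = 0.011), and *Ddx4* stood at 0.24 (adjusted p = 0.081). *Tdrd1*, named after its value was seen, was the only 1 of the 8 with a negative value, at -0.24 (edgeR adjusted p = 0.15). *Dazl* held the largest part of their sum, at a mean of 1105 CPM in wild type and 738 CPM in the *Meioc*-null libraries. Of 6 spermatocyte markers, 5 were called higher in wild type, led by *Hormad1* (1.73), *Meiob* (1.56) and *Sycp3* (1.09). The sixth, *Piwil1*, named after its values were seen, had a log2 fold change of -0.70 with groups that did not overlap (edgeR adjusted p = 0.11). The 6 markers summed to between 1018 and 1316 CPM in wild type, against 505 to 670.3 CPM in *Meioc*-null testes. The 8 Sertoli cell markers summed to between 4438 and 4632 CPM and to between 4636 and 5377 CPM, with *Gata4* called higher in *Meioc*-null testes (-0.33). Most of both sums was *Clu*, named after its value was seen and not called (edgeR adjusted p = 0.17). Its mean was 3587 CPM in wild type and 4015 CPM in *Meioc*-null testes. The list median was -0.098, and 5 of 8 values were negative. Of the 22 Leydig, peritubular myoid, endothelial and macrophage markers only *Des* was called by edgeR (-0.37), while DESeq2 called 2 Leydig markers and 1 myoid marker. The medians of these 4 lists lay between -0.13 and 0.053. Scaled to the germ cell markers of the same library, which lowers the median of all genes to -0.31, all 7 members were lower in wild type with adjusted p under 0.05 in limma, from -0.61 for *Sox3* (adjusted p = 0.040) to -1.11 for *Zbtb16*. With that scaling 42.6% of all genes tested were called in the same direction. The part of the mix of cells in the members' difference was not tested further.

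**Figure D5:**
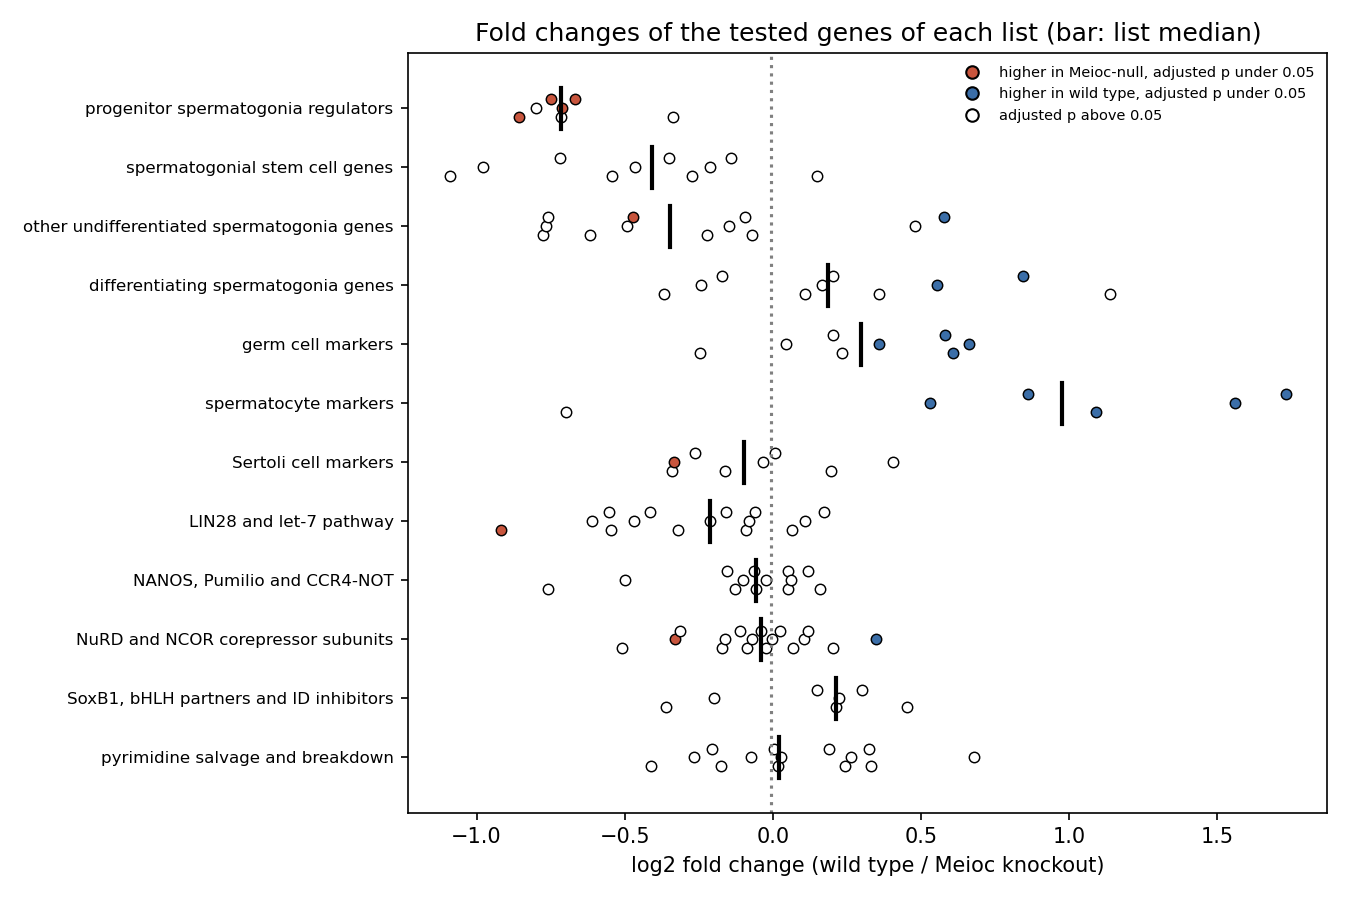
The log2 fold change (wild type/*Meioc* knockout) of every tested gene in 12 lists, with red points called higher in *Meioc*-null, blue points called higher in wild type, open points not called, a black bar at the list median and a dotted line at the median of all genes tested. The members' median lies at -0.71, that of the stem cell genes at -0.41, and that of the spermatocyte markers at 0.98.

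Genes that work with the members mostly did not pass the test. Of 15 tested genes of the LIN28 and let-7 pathway, *Trim71*, an RNA-binding ubiquitin ligase gene and let-7 target, was the only call by edgeR, and DESeq2 called 3. It rose from 65.7 ± 8.34 CPM (SD, n = 4) in wild type to 124 ± 45.0 CPM (SD, n = 3) in *Meioc*-null testes (log2 fold change -0.92, edgeR adjusted p = 0.023). *Lin28b*, the paralog of *Lin28a* and named after its value was seen, stood at -0.21 (adjusted p = 0.39), and the list median was -0.21. In this pathway list 12 of 15 values were negative and 6 genes had an unadjusted p under 0.05 in edgeR. Of 13 tested NANOS, Pumilio and CCR4-NOT genes, which act with NANOS proteins in mRNA decay, none was called by edgeR (median -0.058; 2 had an unadjusted p under 0.05 and DESeq2 called 1). Of 17 NuRD and NCOR corepressor subunits, the partners of SALL4 and PLZF, *Hdac1* was called higher in wild type (0.35) and *Mbd2* higher in *Meioc*-null testes (-0.33). None of the 7 tested SoxB1, bHLH partner and ID genes was called by edgeR (median 0.21; 4 had an unadjusted p under 0.05 and DESeq2 called 2). The same holds for the 14 tested genes of pyrimidine salvage and breakdown around *Upp1* (median 0.022; 5 had an unadjusted p under 0.05 and DESeq2 called 2).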

How the data were processed

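RNA-seq libraries (TruSeq Stranded Total RNA with Ribo-Zero Gold) were grouped by the genotype in their labels. The authors trimmed reads with cutadapt 1.8, estimated transcript abundance with kallisto 0.44.0 on GENCODE Basic vM15 (GRCm38), kept protein-coding transcripts, and deposited estimated counts, not normalized across libraries, and TPM rescaled to a total of 1000000. ERCC spike-ins differed by genotype and were not used.

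Each transcript was assigned to its gene through its Ensembl identifier (GENCODE vM21), and both units were added up per gene. Of 43139 transcripts 119 had no match (0.247% to 0.282% of counts) and were left out. The sums of counts were rounded and TMM-scaled. The test was edgeR 4.0.16 quasi-likelihood (R 4.3.3) with no covariate, on genes that reached 1 TPM in 3 or more of the 7 libraries, with Benjamini-Hochberg adjustment over all 13630. A gene was called at an adjusted p under 0.05. SE was computed from the fold change and its F statistic. The 95% intervals were built from the SE with a normal quantile, for each gene alone and not adjusted over genes. With so few libraries they are narrower than the quasi-likelihood test implies. The fit was tested on simulated data with changed and unchanged genes. Replicates are separate pups. Estimated counts at this depth carry counting error, for which 3 counts correspond to 0.151 to 0.237 CPM. Alternatives were DESeq2 1.42.0, limma 3.58.1 on log2(TPM + 1) and log2(TPM + 0.1), other scalings and filters, a replicate block and leaving out each library.

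The members and the gene lists were chosen with earlier results of these data known. Named genes are the 7 members, *Meioc*, *Ddx4*, *Dazl*, up to 4 called genes per list and the 2 genes nearest to each member. *Clu*, *Egr4*, *Gfra1*, *Id4*, *Lin28b*, *Piwil1* and *Tdrd1* fall outside this rule and were named after their values were seen. RefSeq sequences (GRCm38.p6) were matched by symbol.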

Additional observations from a re-analysis of the deposited data

How the results depend on the processing

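Over the 17 alternatives, none reversed the direction of a member. Of 119 refits of single members, 97 kept the direction and side of the threshold, 17 lost a call and 5 gained a call. The number of members called was 4 in 8 of 16 settings, 5 with limma on either TPM scale, 1 with the replicate block, and 1 to 4 with a library left out. Scaled to germ cell markers, where 42.6% of all genes were called in the same direction, all 7 members were. It was 1, *Lin28a* alone, when wild-type replicate 2, 3 or 4, or else *Meioc*-null replicate 3, was left out, and 2 without *Meioc*-null replicate 2. The number of genes called was 2331 with DESeq2, 2522 with limma on log2(TPM + 1), 2506 with limma on log2(TPM + 0.1) and 131 to 2172 with a library left out. The share of calls higher in *Meioc*-null was 30.01% with TMM, 52.7% with library size alone and 82.6% with log2(TPM + 1). *Sall4* gained a call with limma, at -0.95 on log2(TPM + 1), -1.02 on log2(TPM + 0.1) and -1.07 scaled to germ cell markers, and with the last scaling *Neurog3* (-0.95) and *Sox3* (-0.61) did as well. With a library left out the log2 fold changes ran from -1.04 to -0.56 for *Zbtb16*, -0.77 to -0.56 for *Nanos3* and -0.84 to -0.51 for *Upp1*, and these calls were lost in 4, 5 and 5 of the 7 fits. The cause was not tested.

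The labels do not say that the replicate numbers pair the pups. The deviations of libraries with the same number correlated at 0.023, -0.095 and -0.13 across genes. Those of libraries with different numbers lay between -0.11 and 0.15. The ranges are alike, so these values cannot decide whether pups were paired. With the number as a block, 109 genes were called, and *Zbtb16* (-0.79, edgeR adjusted p = 0.098), *Nanos3* (-0.75, adjusted p = 0.14) and *Upp1* (-0.71, adjusted p = 0.12) were not, with fewer residual degrees of freedom. In the fit with length and GC trends removed, added after seeing the data, 1938 genes and 4 members were called. *Neurog3*, with the fewest counts, had the largest SE (0.29), and *Sall4*, with many more, had a similar SE.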
